A study of Mus musculus with 25 samples.

Results

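Spp1, Rgs4 and Nupr1 are 3 of the 17885 genes with FPKM values in a series of mouse islet RNA-seq libraries. They were chosen because each was lower in knockout islets given REG3B-Fc than in control islets given PBS, so that contrast and the other contrasts of the same libraries are described for them without a test. All 3 genes passed the filter on low values in every table. Nupr1 goes against the description of the 3 as not restored by REG3B-Fc: KO_PBS differed from CTR_PBS by little and in a direction set by the scale, and its lowest levels of that table were in KO_REG3B-Fc.

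The series concerns BAF60C, a subunit of a chromatin remodelling complex, in type 2 diabetes. Messenger RNA of pooled islets, each pool from at least 3 mice, was sequenced and deposited as 4 tables with 19 libraries. BcBKO libraries (n = 2) came from mice with a beta-cell-specific ablation made with Pdx1-cre, and flox/flox libraries (n = 2) are their controls, both after 3 months on high-fat diet (HFD). KO_REG3B-Fc, KO_PBS and CTR_PBS libraries (n = 2 each) share 1 table, and neither the gene behind KO nor what CTR carries is named in the labels. The db_REG3B and db_GFP libraries (n = 2 each) share a table in which db, which both groups carry, is not spelled out and neither is the way REG3B or GFP was given. WT libraries (n = 5) have a table of their own with no second group. The labels give no age or strain for any group. Pdx1 is expressed in early pancreas as well as in beta cells, which limits how far a Pdx1-cre deletion is confined to beta cells.

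Osteopontin, encoded by Spp1, is a secreted phosphoprotein that binds integrins through an RGD motif and binds CD44. In the pancreas it is best known from duct cells and macrophages, and it is also made by islet cells. RGS4 is a GTPase-activating protein that switches off Gq and Gi signalling, and in beta cells it restrains the insulin response to muscarinic M3 receptor stimulation. NUPR1 is a small stress-induced chromatin protein first described in acute pancreatitis, and its gene is a target of the transcription factor ATF4 in the integrated stress response.

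The 15 beta cell markers were measured in all tables, with none listed at 0 throughout a group. They took 28.6 to 71.7% of summed FPKM over all 19 libraries. Between 10402 and 12553 genes per library reached 1 FPKM, and the number of reads behind the values is unknown. Acinar markers, 26 genes for digestive enzymes and their factors, took 16.7 to 16.9% of summed FPKM in KO_REG3B-Fc, 39.4 to 40.5% in KO_PBS and 19.1 to 19.3% in CTR_PBS, while insulin transcripts ranged over the table from 38.2 to 58.4%. On the deposited scale the median gene of KO_PBS sat at a log2 change of -0.438 from CTR_PBS, and that of KO_REG3B-Fc at 0.525 from KO_PBS and 0.086 from CTR_PBS. Changes in this table are given after median scaling, with the value on the deposited scale beside them. Its 3 comparisons share libraries pairwise and are given side by side. In bulk islets fewer cells of a type and less RNA per cell cannot be told apart. Nothing in the labels says more about how replicates were separated than that each is a pool, so p-values measure only the spread between these libraries.

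**Figure D1:**
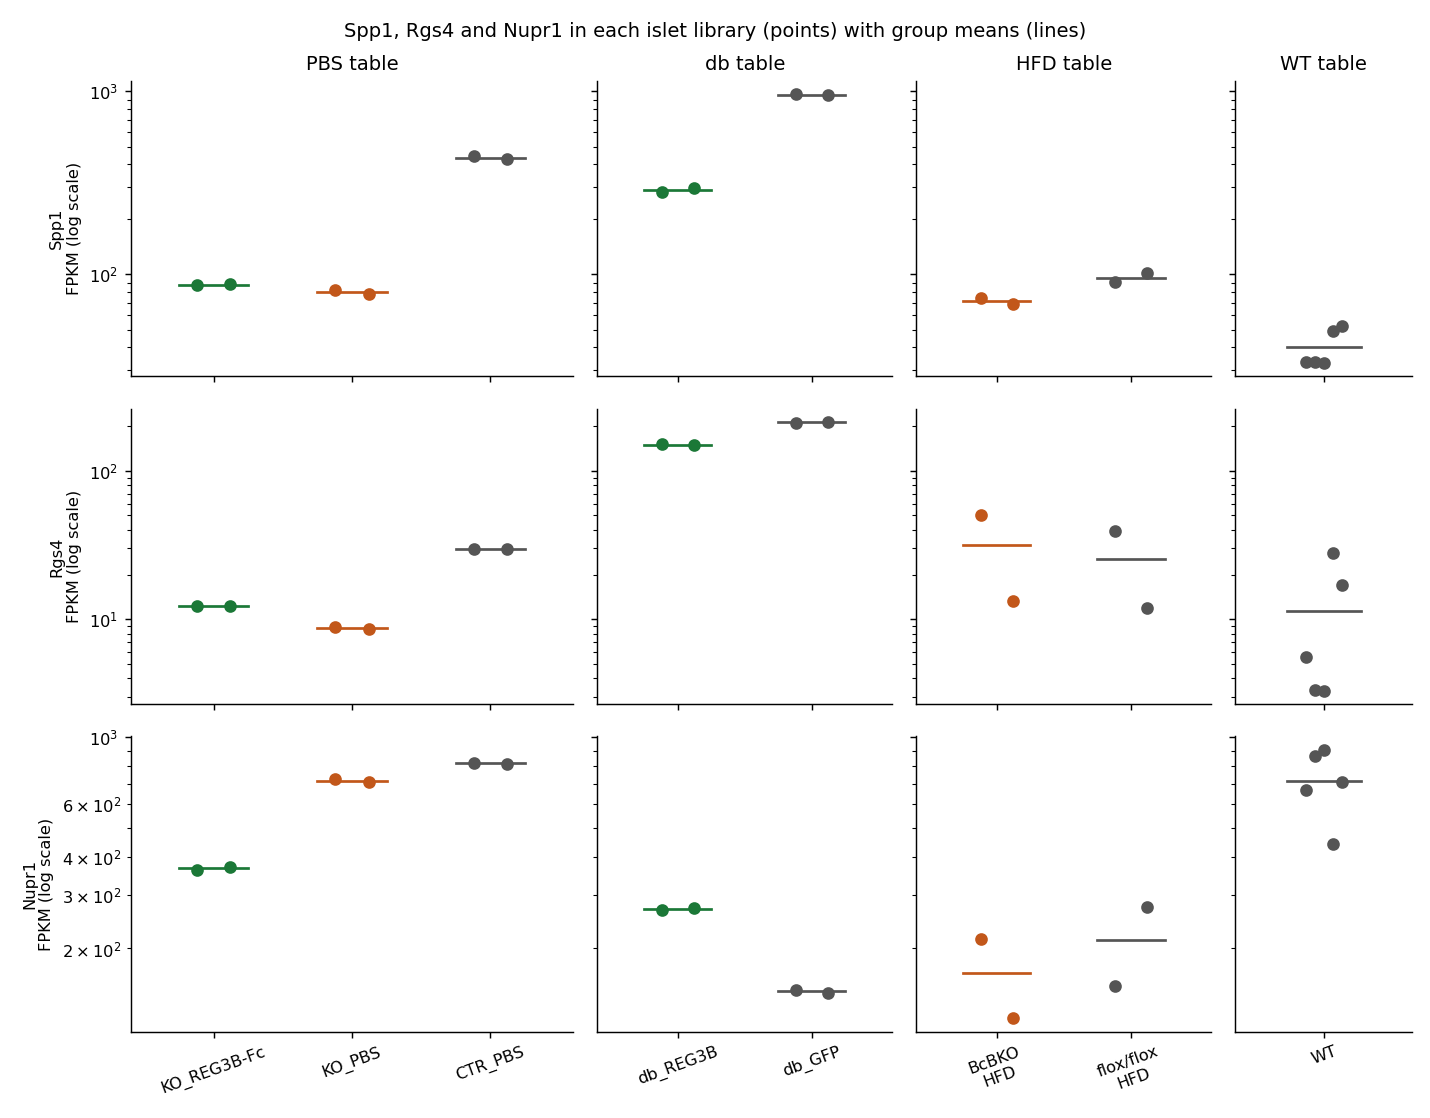
FPKM of Spp1, Rgs4 and Nupr1 (rows, log scale) in each library of the 4 tables (columns), with points for single libraries and lines for group means. Within the PBS table, Spp1 and Rgs4 were lower in KO_REG3B-Fc and KO_PBS than in CTR_PBS. Nupr1 was lowest of that table in KO_REG3B-Fc, with KO_PBS also below CTR_PBS on this deposited scale.

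Spp1 (Entrez 20750) is a protein-coding gene at chr5:104435111-104441053 on the plus strand of GRCm38.p6. How reads shared with an overlapping GENCODE entry of unconfirmed type on the same strand were counted is not given in the sources used here. The RefSeq stretch of 250 bases before its start, chr5:104434861-104435110 in the same build, is shown because Spp1 carried the largest differences of the 3 genes. Capitals mark matches to any of 6 motifs searched on both strands, namely the promoter box TATAAA, the AP-1 site TGANTCA, the C/EBP-ATF composite site TGATGNAA, the RUNX site TGTGGT, the E-box CACGTG and the cAMP response element TGACGTCA.
Spp1: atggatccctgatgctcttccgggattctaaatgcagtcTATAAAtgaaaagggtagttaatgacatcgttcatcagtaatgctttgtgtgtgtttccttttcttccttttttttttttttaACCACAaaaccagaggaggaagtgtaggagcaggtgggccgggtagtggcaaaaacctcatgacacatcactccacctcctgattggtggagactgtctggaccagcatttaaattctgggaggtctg
The window held a TATAAA at 211 to 206 bases before the start, as did 12.4% of 32851 such windows. It also held an ACCACA, the reverse complement of TGTGGT, at 128 to 123 bases, as did 14.0%. A letter match is a description and not a binding site.

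Osteopontin transcripts were abundant in CTR_PBS islets and several-fold scarcer in both knockout groups. Spp1 measured 87.15 and 88.38 FPKM in KO_REG3B-Fc, 81.96 and 78.17 FPKM in KO_PBS libraries, and 443.97 and 426.52 FPKM in CTR_PBS. Both CTR_PBS libraries were far above the other 4, and the knockout groups lay close together. The groups did not overlap, as was so for 29.2% of all genes lower in KO_REG3B-Fc and 36.1% lower in KO_PBS against CTR_PBS, and KO_REG3B-Fc against CTR_PBS is the contrast that chose the gene. KO_REG3B-Fc was lower than CTR_PBS by a log2 change of -2.40, or 5.27-fold (-2.30 and 4.91-fold on the deposited scale). That was the lowest change of the 7131 genes of at least 5 FPKM in CTR_PBS. KO_PBS was lower than CTR_PBS by -1.90, or 3.74-fold (-2.43 and 5.38-fold on the deposited scale), also the lowest of 7131. The CTR_PBS libraries of this contrast were used to choose the gene, so its rank here is not separate support. Between KO_REG3B-Fc and KO_PBS the direction depended on the scale, at -0.49 after median scaling and 0.13 as deposited. The authors' deposited table gives -0.47 for that contrast and -1.95 for KO_PBS against CTR_PBS, close to the median-scaled values. The duct markers summed to 0.0302 to 0.0305% of FPKM in KO_REG3B-Fc, 0.0261 to 0.0263% in KO_PBS and 0.026 to 0.028% in CTR_PBS. Macrophage markers took 0.00786 to 0.00793% in KO_REG3B-Fc, 0.0138 to 0.0144% in KO_PBS and 0.00581 to 0.00593% in CTR_PBS. The part of these cells in the Spp1 levels was not tested.

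In the db table Spp1 fell with REG3B. It measured 281.46 and 294.88 FPKM in db_REG3B, against 962.76 and 953.52 FPKM in db_GFP. Both db_REG3B libraries were below both db_GFP libraries, as was so for 46.2% of all genes (25.2% were higher in both). The log2 change was -1.73 (SE 0.039, limma adjusted p = 5.41e-09 over 12507 genes), a 3.32-fold fall, where limma called 30.8% of all genes lower and 12.2% higher (25.6% and 20.7% after median scaling). The authors' deposited table gives -1.64 for the same contrast, and calls 15.1% of its genes lower and 12.3% higher. Markers of several cell types that can make osteopontin were lower in the same libraries. Duct markers took 0.0751 to 0.0768% of summed FPKM in db_REG3B and 0.141% in both db_GFP libraries, with 10 of 12 tested genes lower and Aqp5 listed at 0 in db_REG3B. Macrophage markers took 0.039 to 0.0394% in db_REG3B and 0.102 to 0.103% in db_GFP, with 15 of 15 tested genes lower and Cd163 listed at 0 in db_GFP. Stellate and pericyte markers took 0.0555 to 0.0558% in db_REG3B and 0.224 to 0.227% in db_GFP, with 13 of 14 lower. Other islet hormone markers took 5.03 to 5.07% in db_REG3B and 10.4% in db_GFP, with 8 of 10 lower, while 12 of 15 beta cell markers were higher. The part of these cells in the Spp1 result was not tested.

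On HFD, Spp1 was lower in both BcBKO libraries without passing the test. It measured 74.02 and 69.08 FPKM in BcBKO, against 90.61 and 101.4 FPKM in flox/flox. The groups did not overlap, which 4.85% of 11560 genes showed in the same direction, and the log2 change was -0.42 (SE 0.128, limma adjusted p = 1). The authors' deposited table lists -0.51 with p = 0.000613 and adjusted p = 0.224, and calls 0.0546% of its genes lower and 0.109% higher. Limma called 1 gene higher (0.00865%) and 0 lower (0.0%) in this comparison, with 427 genes at an unadjusted p under 0.05. The 1 call was lost without any 1 of the 4 libraries and with equal sums without acinar and insulin genes. WT islets, in a table scaled separately, held 33.19, 33.15, 32.85, 49.35 and 52.21 FPKM of Spp1 in libraries 1 to 5.

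**Figure D2:**
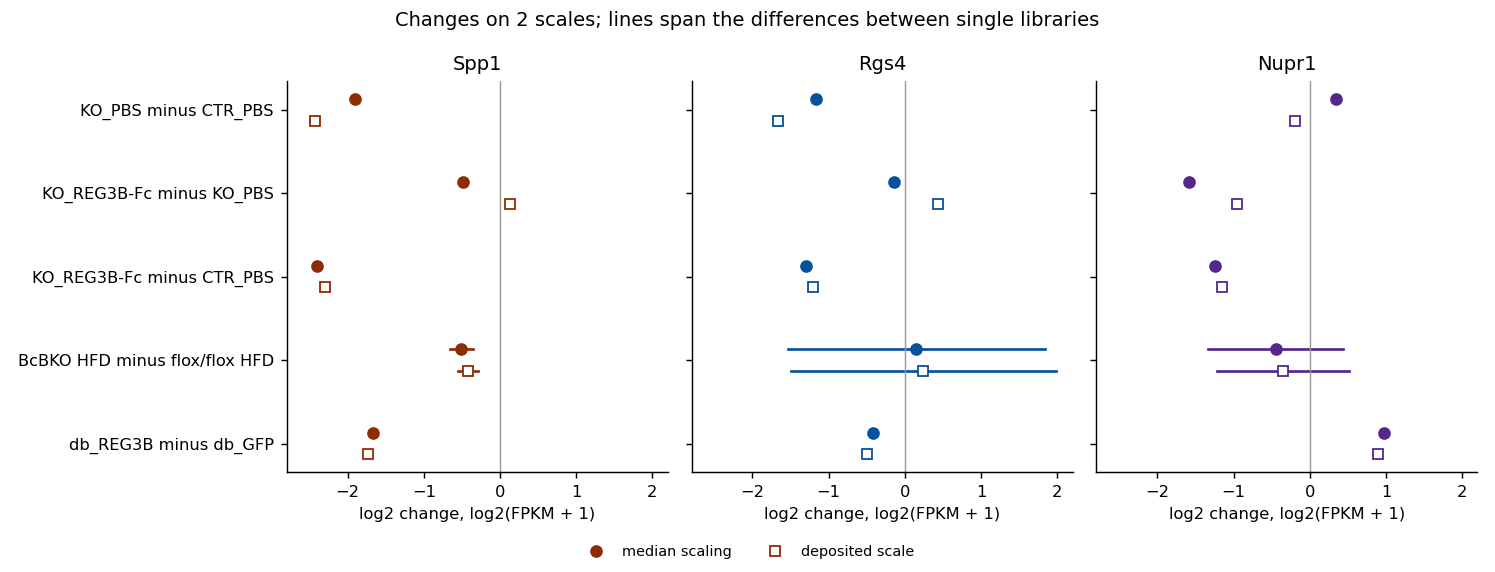
Log2 change on the log2(FPKM + 1) scale (x axis) of each gene in 5 comparisons (y axis), after median scaling (filled circles) and on the deposited scale (open squares); lines span the differences between single libraries and are shorter than the symbols outside HFD. For KO_REG3B-Fc minus KO_PBS the symbols of Spp1 and Rgs4 fall on opposite sides of 0, and for KO_PBS minus CTR_PBS those of Nupr1 do.

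The receptors and partners of osteopontin, a list of 23 genes with integrins, CD44, proteases and matrix ligands, mostly fell in the db table. Of 14 tested genes, 13 fell and 1 rose (30.8% and 12.2% of all genes), with a median log2 change of -1.03 against -0.06 for all genes. Most cell type marker lists fell in the same libraries, with 13 of 14 stellate and pericyte genes (median -1.56), 15 of 15 macrophage genes (median -0.93) and 10 of 10 endothelial genes (median -0.84) lower. Also lower were 8 of 10 other islet hormone genes (median -0.62), 10 of 12 duct genes (median -0.56) and 18 of 24 acinar genes (median -0.50, with 2 higher). Of 3 lymphocyte genes 2 fell and 1 rose, while 12 of 15 beta cell genes rose (median 0.45). Endothelial markers took 0.00519 to 0.0054% of summed FPKM in db_REG3B and 0.0134 to 0.0135% in db_GFP. The part of these cells in the list's fall was not tested. The named falls were in 2 proteases, a protease inhibitor and a matrix ligand. The matrilysin gene Mmp7 measured 8.53 and 10.23 FPKM in db_REG3B, against 100.78 and 98.23 FPKM in db_GFP (log2 change -3.28, limma adjusted p = 5.44e-09). The protease inhibitor gene Timp1 changed by -3.12, the gelatinase gene Mmp9 by -2.71 and the fibronectin gene Fn1 by -2.16, all past the threshold. The receptor genes Cd44 (-0.71) and Itgb1 (-0.63) fell as well. Itgav, the alpha chain of the main RGD-binding integrins, was the gene that rose: 31.67 and 31.55 FPKM in db_REG3B, against 26.75 and 26.31 FPKM in db_GFP (0.24, adjusted p = 0.00359). Without db_GFP replicate 2 that call was lost.

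In the PBS table the same list split. Against CTR_PBS, KO_PBS had 7 of 9 tested genes higher and 1 lower (24.6% and 20.0% of all genes), but 3 and 3 on the deposited scale (8.66% and 81.5%). Stellate and pericyte markers were likewise higher in KO_PBS for 10 of 13 tested genes and macrophage markers for 11 of 12 after scaling (9 and 8 as deposited), and their part was not tested. The matrix ligand gene Vtn rose to 43.35 and 43.43 FPKM in KO_PBS, against 22.74 and 23.33 FPKM in CTR_PBS (log2 change 1.40, limma adjusted p = 1.78e-07), and the crosslinking enzyme gene Tgm2 changed by 1.37. Itgav fell to 6.80 and 6.50 FPKM in KO_PBS, against 15.12 and 14.74 FPKM in CTR_PBS (-0.58, adjusted p = 2.34e-05, and -1.06 on the deposited scale). Cd44 changed by 0.49 and Itgb1 by 0.18 after scaling, while on the deposited scale they stood at 0.02 and -0.34.

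In KO_REG3B-Fc against KO_PBS, Itgav rose while Vtn and Tgm2 fell. KO_REG3B-Fc had 2 of 9 genes higher and 6 lower than KO_PBS (20.2% and 24.7% of all genes), or 5 and 2 on the deposited scale (86.2% and 6.97%). Only 1 was higher without KO_PBS replicate 2, without KO_REG3B-Fc replicate 1 or with a pseudocount of 0.1 FPKM. Stellate and pericyte markers were lower for 10 of 13 tested genes and macrophage markers for 12 of 12 after scaling (8 and 7 as deposited, where 5 and 1 were higher), and their part was not tested. Itgav rose to 14.61 and 13.50 FPKM in KO_REG3B-Fc, against the KO_PBS values above (log2 change 0.41, limma adjusted p = 0.000211). Vtn fell to 22.43 and 23.28 FPKM in KO_REG3B-Fc (-1.51), and Tgm2 changed by -0.88. On the deposited scale all 3 kept these directions and passed. Cd44 (-0.31) and Itgb1 (-0.13) passed as lower after scaling and as higher before it (0.25 and 0.48). Against CTR_PBS, KO_REG3B-Fc had 2 of 9 higher and 1 lower (5.47% and 5.3% of all genes, or 16.8% and 2.87% as deposited). The lower gene was Itgav (-0.18, adjusted p = 0.0483), a call lost on the deposited scale (adjusted p = 0.317) and without any 1 of the 4 libraries of that contrast. Cd44 (0.17) and Itgb1 (0.04) did not pass there.

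None of the 11 tested partner genes passed on HFD. The most different by p were Mmp7, at 0.28 and 0.55 FPKM in BcBKO and 1.70 and 2.63 FPKM in flox/flox (log2 change -1.15, limma adjusted p = 1), and Cd44, at 13.30 and 14.12 FPKM in BcBKO and 9.48 and 11.48 FPKM in flox/flox (0.36). Itgav and Itgb1 stood at 0.10 and 0.11.

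**Figure D3:**
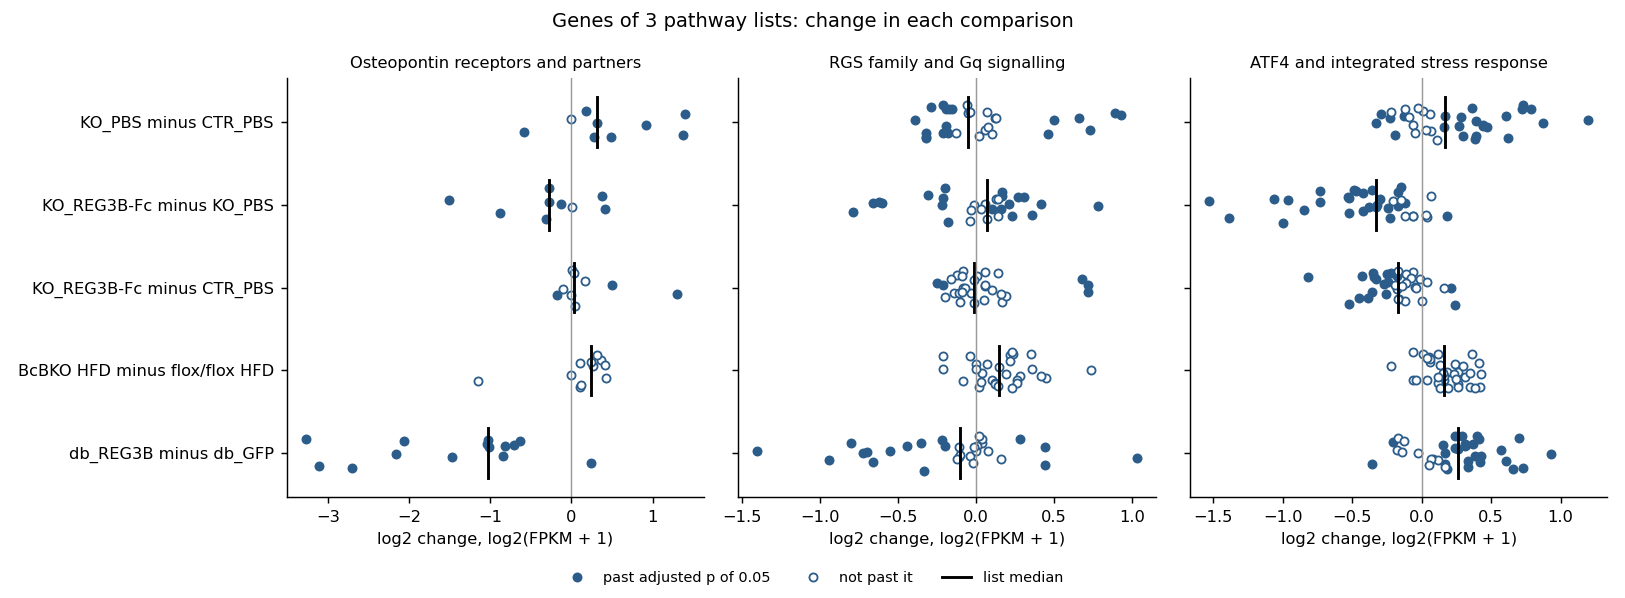
Log2 change on the log2(FPKM + 1) scale (x axis) of each tested gene of 3 lists in 5 comparisons (y axis), filled where limma's adjusted p was under 0.05, with the list median as a bar; PBS rows are median scaled and the others are as deposited. In db_REG3B minus db_GFP the osteopontin partners lie mostly below 0 (median -1.03) and the ATF4 list mostly above it (median 0.26).

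Rgs4 (Entrez 19736) is a protein-coding gene at chr1:169741477-169747642 on the minus strand. Its upstream stretch of 250 bases, chr1:169747643-169747892 in RefSeq GRCm38.p6, is given 5′ to 3′ on the gene's strand with the same marking, for comparison with that of Spp1, which moved with it in the PBS and db tables.
Rgs4: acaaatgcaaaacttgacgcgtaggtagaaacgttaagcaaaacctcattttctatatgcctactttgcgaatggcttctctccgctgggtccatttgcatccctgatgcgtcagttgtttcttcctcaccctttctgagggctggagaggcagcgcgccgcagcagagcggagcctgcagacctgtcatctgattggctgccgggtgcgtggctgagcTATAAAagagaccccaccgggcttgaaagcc
The single match was a TATAAA at 31 to 26 bases before the start, the usual place of a TATA box. Spp1 and Rgs4 thus share that motif, at different distances, and no other of the 6.

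The Gq and Gi brake encoded by Rgs4 was 2.24-fold lower in KO_PBS than in CTR_PBS (3.15-fold as deposited) and 2.47-fold lower in KO_REG3B-Fc (2.32-fold). Rgs4 measured 12.21 and 12.31 FPKM in KO_REG3B-Fc, 8.91 and 8.62 FPKM in KO_PBS libraries, and 29.92 and 29.60 FPKM in CTR_PBS. Both CTR_PBS libraries exceeded all 4 knockout libraries. Of all genes, 29.2% were likewise lower without overlap in KO_REG3B-Fc and 36.1% in KO_PBS against CTR_PBS. The log2 change of KO_REG3B-Fc from CTR_PBS was -1.30 (-1.21 as deposited), rank 10 from the lowest of the 7131 genes of at least 5 FPKM in CTR_PBS. This contrast chose the gene, so a low rank in it was set by the choice. The log2 change of KO_PBS from CTR_PBS was -1.17 (-1.66 as deposited), rank 6 from the lowest. The CTR_PBS libraries of this contrast were used in the choice too, so that rank is not separate support. KO_REG3B-Fc differed from KO_PBS by -0.14 after median scaling and by 0.44 as deposited, so its direction depended on the scale. The authors' deposited table gives -0.12 for that contrast and -1.28 for KO_PBS against CTR_PBS, close to the median-scaled values.

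In the db table Rgs4 fell with REG3B by less than Spp1. It measured 150.75 and 149.01 FPKM in db_REG3B, against 211.2 and 212.9 FPKM in db_GFP, with no overlap. That was so for 46.2% of all genes in the same direction. The log2 change was -0.50 (SE 0.038, limma adjusted p = 7.68e-06), and the authors' deposited table gives -0.40 with adjusted p = 1.42e-18. The change shrank to -0.31 (1.24-fold) when libraries were scaled to equal sums without acinar and insulin genes, and still passed.

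On HFD the Rgs4 libraries differed within each genotype by more than between genotypes. Rgs4 measured 50 and 13.25 FPKM in BcBKO replicates 1 and 2, against 39.19 and 11.96 FPKM in flox/flox replicates 1 and 2. The groups overlapped, and the library with the higher value was replicate 1 in both genotypes (log2 change 0.24, SE 0.776, limma adjusted p = 1). WT libraries were as uneven, at 5.53, 3.33, 3.31, 27.91 and 17.07 FPKM in libraries 1 to 5. Acinar markers took 37.8, 49.6, 51.9, 6.8 and 32.1% of summed FPKM in the same libraries, so the library with the fewest acinar transcripts held the most Rgs4. The part of acinar content in this spread was not tested.

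The rest of the family had no common direction. The list of 37 RGS proteins, Gq and Gi subunits and effectors had 6 of 29 tested genes higher and 12 lower in KO_PBS against CTR_PBS after scaling, where 24.6% and 20.0% of all genes were called. As deposited 4 were higher and 22 lower, against 8.66% and 81.5% of all genes, so the count of 22 of 29 lower was near that background. Without CTR_PBS replicate 1 the count of lower genes was 7. Rgs16 and Rgs2, relatives that act on Gi and on Gq, passed as higher on both scales there. Rgs2 rose to 125.75 and 122.45 FPKM in KO_PBS, against 108.91 and 105.56 FPKM in CTR_PBS (log2 change 0.73, limma adjusted p = 9.49e-07, and 0.21 as deposited), and Rgs16 by 0.89 (0.38 as deposited). Rgs7 (-0.39) and the G protein subunit gene Gnao1 (-0.32) fell, Chrm3, the muscarinic M3 receptor gene, fell by 0.29, and Gnaq (-0.13) did not pass after scaling (adjusted p = 0.125).

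With REG3B-Fc, 11 of the 29 genes rose and 9 fell against KO_PBS, where 20.2% and 24.7% of all genes did. On the deposited scale 25 and 2 did so, against 86.2% and 6.97% of all genes, about the share of all genes. Leaving out 1 of these 4 libraries left 4 to 7 that rose after scaling. The inositol trisphosphate receptor gene Itpr1 rose to 7.55 and 7.53 FPKM in KO_REG3B-Fc, against 2.64 and 2.37 FPKM in KO_PBS (log2 change 0.78, limma adjusted p = 1.35e-05), and Gnao1 (0.42) and Rgs9 (0.36) rose as well. Gnai1 passed as lower after scaling (-0.31) and as higher before it (0.22). Chrm3 (0.13), Gnaq (0.14) and Rgs2 (-0.01) did not pass after scaling. Against CTR_PBS, KO_REG3B-Fc had 3 genes higher and 2 lower (5.47% and 5.3% of all genes), or 7 and 0 as deposited (16.8% and 2.87%), with Itpr1 (0.72), Rgs2 (0.72) and Rgs16 (0.68) up and Gnai1 (-0.25) down. Without 1 library of that contrast 0 or 1 gene was lower. Rgs2 measured 193.01 and 188.62 FPKM in KO_REG3B-Fc, so it stood above CTR_PBS in the libraries where Rgs4 stood below. Gnaq (0.01) and Chrm3 (-0.16) did not pass there.

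In the db table, 12 of 30 tested genes of the list fell and 4 rose, near the 30.8% and 12.2% of all genes, with a median of -0.10. After median scaling 10 fell and 7 rose (25.6% and 20.7% of all genes). Gna14, which encodes a Gq-class subunit, fell to 1.56 and 1.31 FPKM in db_REG3B, against 5.19 and 5.63 FPKM in db_GFP (log2 change -1.40, limma adjusted p = 3.11e-06). Rgs10 (-0.94) and Rgs16 (-0.72) fell, and Rgs11 rose to 56.96 and 56.83 FPKM in db_REG3B, against 28.00 and 26.86 FPKM in db_GFP (1.03). Chrm3 rose by 0.44, Rgs2 fell by 0.22 (adjusted p = 0.039, and 0.0868 after median scaling), and Gnaq stood at -0.10 without passing. On HFD 0 of 29 genes passed. The lowest p belonged to Rgs5, at 49.87 and 53.02 FPKM in BcBKO and 42.04 and 42.19 FPKM in flox/flox, and to Itpr1 (0.36), while Chrm3, Rgs2 and Gnaq stood at 0.24, 0.19 and 0.12.

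Nupr1 (Entrez 56312) is a protein-coding gene at chr7:126623246-126625470 on the minus strand in RefSeq, and GENCODE extends it further upstream. Its upstream 250 bases, chr7:126625471-126625720 in RefSeq GRCm38.p6, are shown with the same marking because they hold letters of the composite site at which ATF4 and C/EBP factors are known to bind.
Nupr1: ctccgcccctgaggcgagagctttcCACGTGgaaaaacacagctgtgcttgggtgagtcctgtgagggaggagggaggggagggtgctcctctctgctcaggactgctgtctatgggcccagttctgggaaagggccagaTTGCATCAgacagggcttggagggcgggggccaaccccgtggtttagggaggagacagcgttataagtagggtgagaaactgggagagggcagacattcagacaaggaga
The window held a TTGCATCA, a match to the reverse complement of TGATGNAA, at 110 to 103 bases before the start, as did 3.45% of the 32851 windows. It also held a CACGTG at 225 to 220 bases, as did 6.02%. Spp1 and Rgs4 had neither in their windows, and no marked motifs overlapped.

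Nupr1 was lower with REG3B-Fc than in either other group of its table. It measured 363.3 and 372.27 FPKM in KO_REG3B-Fc, 726.76 and 706.34 FPKM in KO_PBS libraries, and 821.16 and 810.75 FPKM in CTR_PBS. Both KO_REG3B-Fc libraries were far below the other 4. Of all genes, 36.3% were likewise lower without overlap against KO_PBS (36.3% were higher) and 29.2% against CTR_PBS (28.5% were higher). KO_REG3B-Fc was lower than CTR_PBS by a log2 change of -1.25 (-1.15 as deposited), rank 12 from the lowest of the 7131 genes of at least 5 FPKM in CTR_PBS. This contrast chose the gene, so a low rank in it was set by the choice. KO_REG3B-Fc was lower than KO_PBS by -1.59 (-0.96 as deposited). KO_PBS against CTR_PBS depended on the scale, at 0.34 after median scaling, -0.19 as deposited and 0.06 when libraries were scaled to equal sums without acinar and insulin genes. The authors' deposited table gives 0.3 for that contrast and -1.56 for KO_REG3B-Fc against KO_PBS, close to the median-scaled values. Nupr1 is also an acinar stress gene, and acinar markers were higher in KO_PBS than in either other group by the shares given above. Their part in the Nupr1 levels was not tested.

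In the db table Nupr1 rose with REG3B. It measured 267.94 and 272.73 FPKM in db_REG3B, against 145.97 and 142.57 FPKM in db_GFP, with no overlap. That was so for 25.2% of all genes in the same direction. The log2 change was 0.90 (SE 0.039, limma adjusted p = 1.96e-07), a 1.87-fold rise, and the authors' deposited table gives 0.97 with adjusted p = 5.33e-28. Acinar markers were scarce here, at 0.0686 to 0.0697% of summed FPKM in db_REG3B and 0.156 to 0.159% in db_GFP. Beta cell markers took 59.6 to 59.8% in db_REG3B and 40.7 to 40.9% in db_GFP. The part of either cell type in the Nupr1 result was not tested.

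On HFD Nupr1 varied within genotypes. It measured 215.36 and 117.76 FPKM in BcBKO, against 150.6 and 274.83 FPKM in flox/flox, and the groups overlapped (log2 change -0.35, SE 0.402, limma adjusted p = 1). WT libraries held 665.47, 861.68, 905.73, 442.92 and 706.14 FPKM in libraries 1 to 5. Here the library with the fewest acinar transcripts, the fourth, held the least Nupr1, the reverse of Rgs4.

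Genes of the integrated stress response were next considered, a list of 39 with ATF4, its targets for amino acid synthesis and transport, and the kinases upstream. In the db table most of them rose. Of 37 tested genes 25 rose and 2 fell (12.2% and 30.8% of all genes), with a median of 0.26 against -0.06 for all genes. After median scaling 27 rose and 1 fell (20.7% and 25.6%). The count that fell was 0 without db_GFP replicate 2 or db_REG3B replicate 1 and 1 without db_GFP replicate 1. Atf4 measured 293.94 and 302.31 FPKM in db_REG3B, against 240.55 and 235.96 FPKM in db_GFP (log2 change 0.32, limma adjusted p = 0.000134). The pseudokinase gene Trib3 rose to 49.16 and 51.11 FPKM in db_REG3B, against 30.78 and 30.30 FPKM in db_GFP (0.70), and Ddit3, which encodes the stress factor CHOP, rose by 0.57. Psat1 (0.73) and Phgdh (0.66), 2 enzyme genes of serine synthesis, and the stress cytokine gene Gdf15 (0.61) rose as well. Beta cell markers also rose in these libraries, with 12 of 15 genes higher (median 0.45). They took 59.6 to 59.8% of summed FPKM in db_REG3B and 40.7 to 40.9% in db_GFP. The part of beta cell content in the list's rise was not tested.

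In KO_REG3B-Fc against CTR_PBS the list leaned the other way, with 16 of 35 tested genes lower and 2 higher (5.3% and 5.47% of all genes), and 9 and 3 on the deposited scale (2.87% and 16.8%). Leaving out any 1 of the 4 libraries of that contrast left 8 or 9 lower and 0 or 1 higher. Chac1, a glutathione-degrading ATF4 target, fell to 26.71 and 24.55 FPKM in KO_REG3B-Fc, against 43.74 and 41.92 FPKM in CTR_PBS (log2 change -0.82, limma adjusted p = 2.6e-05). The hormone gene Fgf21 (-0.52), the tryptophan tRNA synthetase gene Wars (-0.45) and Trib3 (-0.43) fell on both scales. Acinar markers were lower in KO_REG3B-Fc for 22 of 26 tested genes (18 as deposited), and their part was not tested. Atf4 passed after scaling (-0.25, adjusted p = 0.00792) and not before (-0.15, adjusted p = 0.0711), and Ddit3 (-0.18) did not pass.

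Against KO_PBS, KO_REG3B-Fc had 26 of 35 genes lower and 1 higher after scaling (24.7% and 20.2% of all genes), but 8 lower and 22 higher as deposited (6.97% and 86.2%). The 1 higher call was lost without any 1 of the 4 libraries of that contrast. A few fell on both scales. Cth, the cystathionine lyase of cysteine synthesis, fell to 6.13 and 5.89 FPKM in KO_REG3B-Fc, against 12.84 and 12.40 FPKM in KO_PBS (log2 change -1.53, limma adjusted p = 1.06e-07, and -0.96 as deposited). Fgf21 (-1.39), Psat1 (-1.06) and the translation inhibitor gene Eif4ebp1 (-0.96) did so too. Acinar markers were lower in this contrast for 26 of 26 tested genes on both scales, and their part was not tested. Atf4 passed as lower after scaling (-0.12, adjusted p = 0.0448) and as higher before it (0.50), while Ddit3 (0.04) and Trib3 (-0.21) did not pass after scaling.

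For KO_PBS against CTR_PBS 19 of 35 genes rose and 5 fell after scaling (24.6% and 20.0% of all genes), and 6 and 23 as deposited (8.66% and 81.5%). Without CTR_PBS replicate 2 the count of lower genes after scaling was 2, and without either KO_PBS library it was 3. Cth (log2 change 1.2), Fgf21 (0.87), Psat1 (0.79) and Phgdh (0.73) passed as higher on both scales in limma, and Atf4 (-0.13) and Ddit3 (-0.23) as lower on both. Acinar markers were higher in KO_PBS for 26 of 26 tested genes on both scales, and their part was not tested. Trib3 (-0.22) did not pass after scaling. On HFD 0 of 35 passed. The lowest p belonged to Atf5, at 107.86 and 69.99 FPKM in BcBKO and 70.64 and 58.33 FPKM in flox/flox, and to Vldlr (0.23), while Atf4, Ddit3 and Trib3 stood at -0.06, 0.19 and 0.41.

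**Figure D4:**
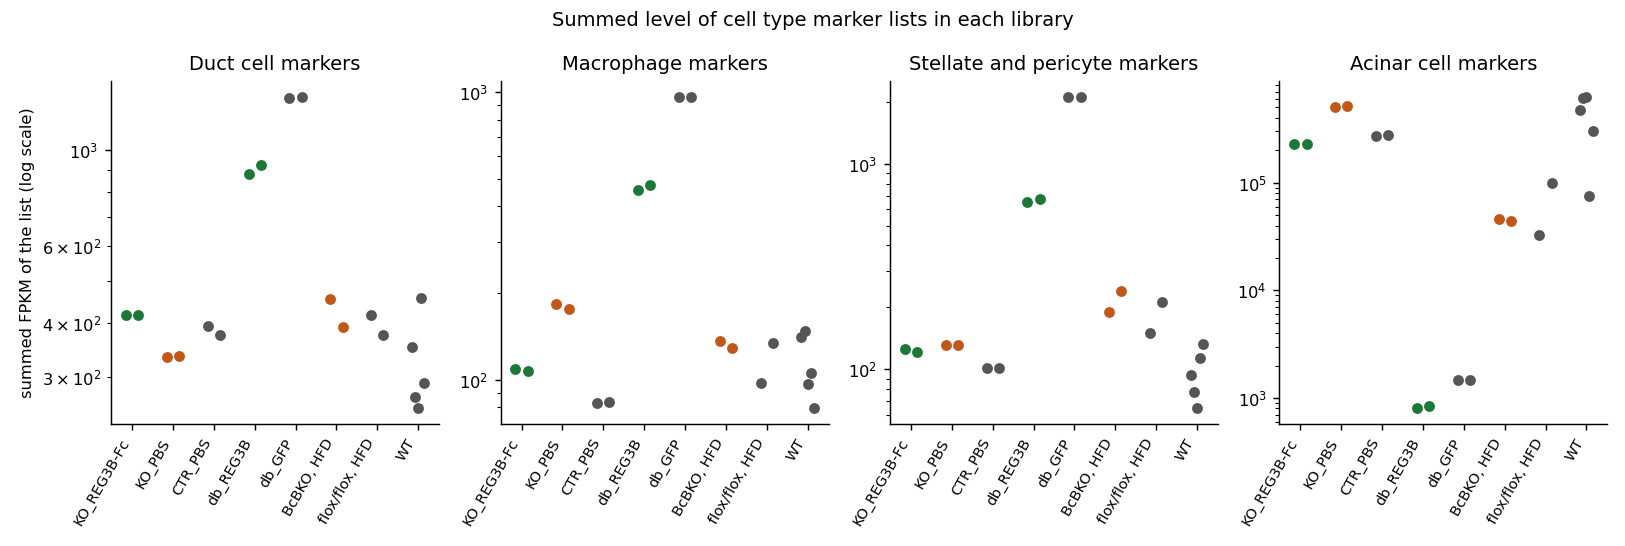
Summed FPKM (log scale) of 4 cell type marker lists in each library, grouped by the labels. Duct, macrophage and stellate markers were highest in db_GFP, and acinar markers were higher in KO_PBS than in KO_REG3B-Fc and CTR_PBS.

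The profiles of the 3 genes over all 19 libraries were unlike each other. After centring each gene within its table, the root mean square difference was 0.73 between Spp1 and Rgs4, 0.87 between Spp1 and Nupr1 and 1.02 between Rgs4 and Nupr1, on the log2 scale. Likeness was then ranked over 10414 genes as a description. Nupr1 had the closest neighbours, the peptide hormone gene Adm2 at 0.282 and Psat1 at 0.286, then Slc41a1, Slc25a35 and Gcat at 0.329 to 0.333, where a flat profile would differ by 0.593. Among WT libraries these neighbours, like Nupr1, were lowest in library 4, where acinar markers took the smallest share (6.8%). The part of acinar content in this likeness was not tested. Adm2 measured 3.77 to 4.28 FPKM in KO_REG3B-Fc, 6.00 to 6.93 FPKM in KO_PBS and 5.81 to 6.01 FPKM in CTR_PBS, and 21.80 to 21.86 FPKM in db_REG3B against 11.47 to 11.70 FPKM in db_GFP.

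The genes nearest to Rgs4 were the cytidine deaminase gene Apobec1 at 0.393, Rnf138rt1, Nfkbiz, the cytokine signal inhibitor gene Socs3 and C2cd4b at 0.441, against 0.697 for a flat profile. C2cd4b ranged over the HFD libraries as Rgs4 did, from 44.25 to 205.26 FPKM in BcBKO and from 39.94 to 185.06 FPKM in flox/flox. Elsewhere it went another way, at 78.41 to 85.56 FPKM in db_REG3B against 48.51 to 50.38 FPKM in db_GFP. In KO_REG3B-Fc it measured 37.91 to 39.82 FPKM, against 34.47 to 37.51 FPKM in CTR_PBS. Apobec1 was also higher in db_REG3B than in db_GFP, while Rnf138rt1, Nfkbiz and Socs3 were lower, as Rgs4 was. Spp1 had no close neighbour: Serpina10 at 0.465, then Igfbp3, Pigr, Mapk4 and Tifa at 0.503 to 0.510, against 0.712 for a flat profile. Serpina10 measured 90.69 to 92.08 FPKM in KO_REG3B-Fc, 61.86 to 65.35 FPKM in KO_PBS and 173.88 to 177.85 FPKM in CTR_PBS. Without the WT libraries 4 of the 5 neighbours of Spp1, 1 of Rgs4 and 2 of Nupr1 were kept, and the amylase gene Amy2b entered the 5 of Nupr1.

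**Figure D5:**
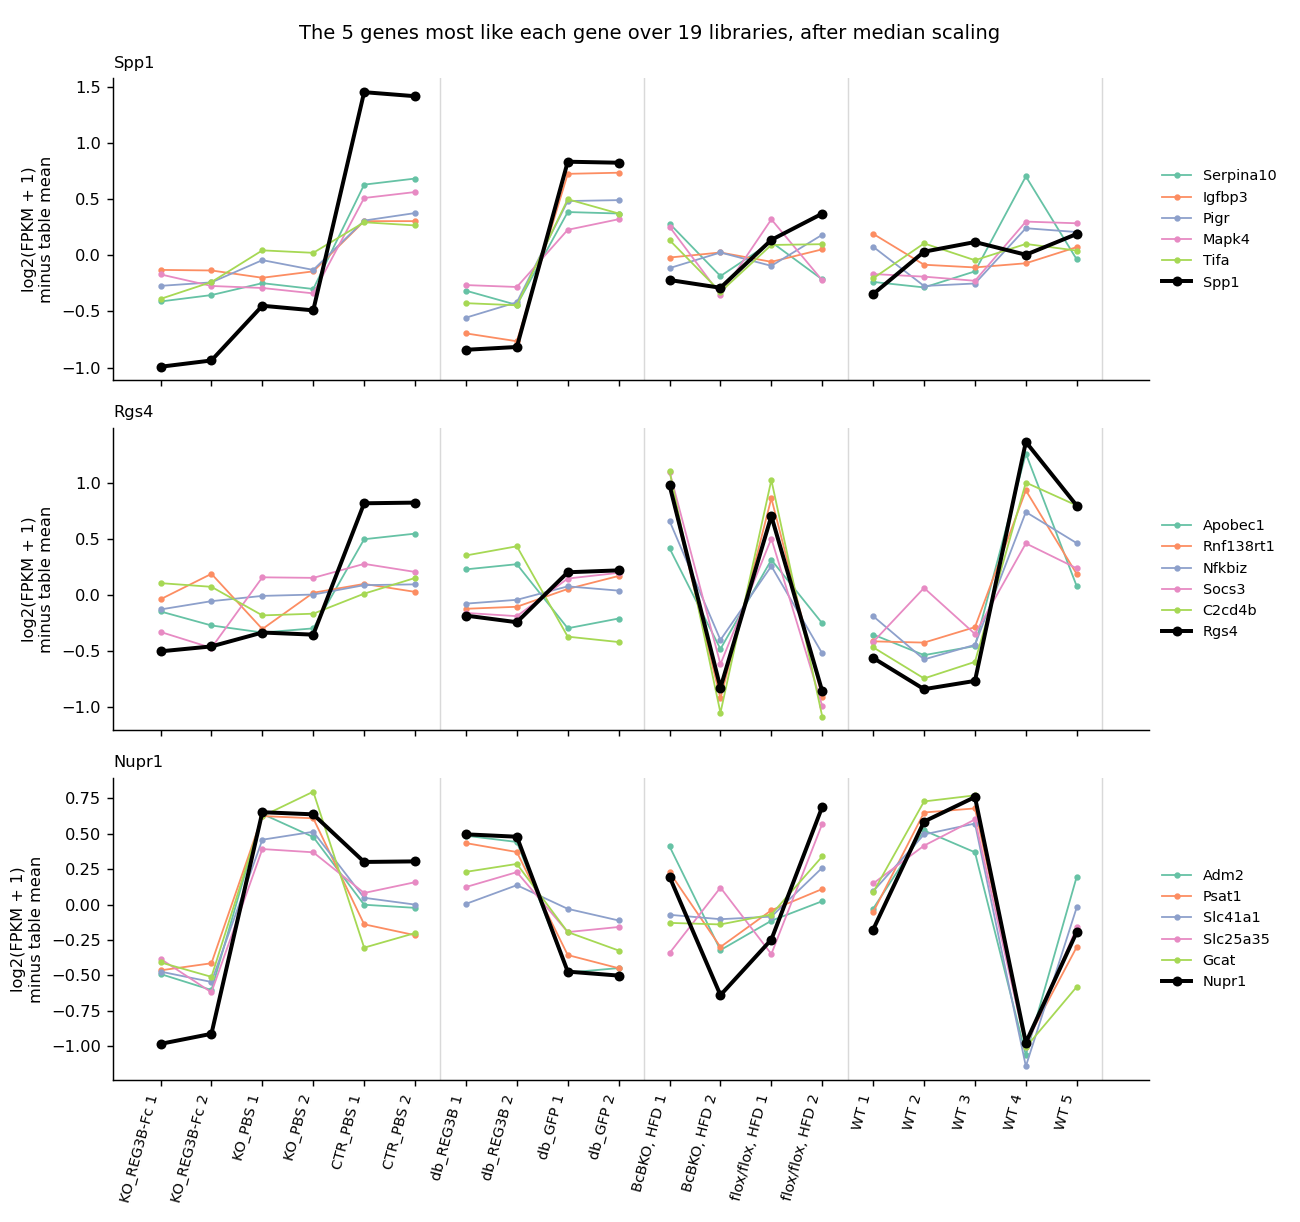
Log2(FPKM + 1) after median scaling, minus the mean of the table (y axis), in each of 19 libraries (x axis) for Spp1, Rgs4 and Nupr1 (thick black lines) and the 5 genes most like each. Nupr1 is followed closely by Adm2 and Psat1, and Spp1 exceeds its neighbours in both CTR_PBS libraries.

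Beside the 3 genes, the lowest changes of KO_REG3B-Fc from CTR_PBS, among genes of at least 5 FPKM in CTR_PBS, included haemoglobin genes and a plasma cell gene. After Spp1 came Jchain (log2 change -1.75), which joins antibody chains, Hba-a2 (-1.74), Hba-a1 (-1.67), the secreted lectin gene Reg2 (-1.63), Hbb-bs (-1.57), Lrg1 (-1.48) and Hbb-bt (-1.45). Haemoglobin genes are transcribed in red cell precursors. Hba-a2 averaged 48.1 FPKM in KO_REG3B-Fc, 203 FPKM in KO_PBS and 153 FPKM in CTR_PBS, so unlike Spp1 it was not low in KO_PBS.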

How the data were processed

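Islet mRNA was sequenced as paired ends on a BGISEQ-500, per the labels' protocols. The authors deposited FPKM for 4 tables and also TPM for HFD, on GRCm38.p6 per the submitters' processing notes. The aligner and the annotation are not given in the sources used here. Their log2 fold changes and p-values come from the authors' deposited table. WT had 275 lines missing a value and 50 repeated identifiers, left out. Chow samples were not analysed here. Genes with at least 1 FPKM in 2 libraries of a table entered limma 3.58.1 (R 4.3.3) on log2(FPKM + 1) with a trended prior, 2-sided, Benjamini-Hochberg adjusted over all genes at 0.05. HFD and db stayed on the deposited scale. The PBS table was divided by the median ratio to the geometric mean library. The fit was tested on simulated data. FPKM understate changes of low genes through the pseudocount.

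Members and lists were chosen with earlier results of these data known. In each pathway list and comparison, up to 4 passing genes were named, or 2 by p where none passed; those were the largest changes without overlap among genes whose higher group reached 5 FPKM. Cd44, Itgav, Itgb1, Chrm3, Gnaq, Rgs2, Atf4, Ddit3 and Trib3, the 5 genes most like each member and the 8 lowest genes were named too. Alternatives were no filter, a pseudocount of 0.1, the other scale, TPM on HFD, a replicate block, only the libraries of a comparison, leaving out each library and, chosen after seeing the data, equal sums without acinar and insulin genes.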

Additional observations from a re-analysis of the deposited data

Results flagged for a closer look

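Nupr1 moved in opposite directions in the 2 comparisons with a REG3B agent. For KO_REG3B-Fc minus KO_PBS the log2 change was -1.59 after median scaling (-0.96 as deposited). Both treated libraries were below both KO_PBS libraries, as for 36.3% of all genes. The low values of these KO_REG3B-Fc libraries were used to choose the gene. For db_REG3B minus db_GFP it was 0.90 as deposited (0.97 after median scaling). Both treated libraries were above both db_GFP libraries, as for 25.2% of all genes. The difference between the 2 effects was not tested.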

How the results depend on the processing

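For the db table, every member kept its direction and call under all alternatives run. With replicate number as a block the log2 changes were those without it, -1.73 for Spp1, -0.50 for Rgs4 and 0.90 for Nupr1 in db, with no call of a member changed in db or HFD, and the block called 2 genes higher and 2 lower on HFD. Same-numbered libraries deviated together on HFD (correlation 0.669), but not in the PBS table (0.0244, 0.0472 and -0.0228) or in db (-0.0499). The labels do not say that the numbers pair libraries, and the main fits used no block. On HFD the shared deviation thus stayed in the spread of the main fit. With the block, limma's adjusted p on HFD was 0.187 for Spp1, 0.308 for Rgs4 and 0.674 for Nupr1. On the deposited scale KO_PBS minus CTR_PBS was -2.43 for Spp1, -1.66 for Rgs4 and -0.19 for Nupr1, KO_REG3B-Fc minus KO_PBS was 0.13, 0.44 and -0.96, and KO_REG3B-Fc minus CTR_PBS was -2.30, -1.21 and -1.15, in the same order of genes. With equal sums without acinar and insulin genes, KO_PBS minus CTR_PBS was -2.18, -1.43 and 0.06, and KO_REG3B-Fc minus KO_PBS was -0.21, 0.13 and -1.30. A pseudocount of 0.1 FPKM gave Rgs4 -1.23 for KO_PBS and -1.37 for KO_REG3B-Fc against CTR_PBS. The cause of these shifts was not tested beyond the change of scale or pseudocount itself. Leaving out 1 library gave, on HFD, -0.50 to -0.34 for Spp1, -0.68 to 1.16 for Rgs4 (-0.58 without flox/flox replicate 2, -0.68 without BcBKO replicate 1) and -0.78 to 0.08 for Nupr1 (0.08 without flox/flox replicate 2 or BcBKO replicate 2). For KO_PBS minus CTR_PBS the ranges were -1.92 to -1.88, -1.17 to -1.15 and 0.34 to 0.36. For KO_REG3B-Fc minus KO_PBS they were -0.52 to -0.46, -0.15 to -0.11 and -1.62 to -1.55, for KO_REG3B-Fc minus CTR_PBS -2.42 to -2.37, -1.32 to -1.27 and -1.28 to -1.21, and for db -1.76 to -1.70, -0.51 to -0.49 and 0.88 to 0.92. Counts of all genes called depended on the scale: as deposited 1021 were higher and 9603 lower for KO_PBS minus CTR_PBS (2905 and 2357 after median scaling), 10157 and 822 for KO_REG3B-Fc minus KO_PBS (2376 and 2917), and 1977 and 338 for KO_REG3B-Fc minus CTR_PBS (645 and 625). Without 1 library of a contrast, KO_REG3B-Fc minus CTR_PBS had 228 to 288 higher and 234 to 309 lower, below the full counts for each of its 4 libraries. Without CTR_PBS replicate 1 or 2, KO_PBS minus CTR_PBS had 1436 or 1513 lower. Without db_GFP replicate 1 or 2, db had 855 or 816 higher and 2292 or 2330 lower, against 1530 and 3856 with all libraries. With no filter KO_REG3B-Fc minus CTR_PBS had 382 higher and 341 lower. With equal sums without acinar and insulin genes, 1478 were higher and 7441 lower for KO_PBS minus CTR_PBS, 7620 and 1403 for KO_REG3B-Fc minus KO_PBS, and 4810 and 2483 for db, where median scaling gave 2590 higher. Over all settings and comparisons, list counts moved by more than 1.5 times in 80 cases and by less in 250. Depth is unknown, so no limit of detection is given.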
